A study of Mus musculus with 10 samples.

Results

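The mitochondrial ribosomal protein genes were taken as all rows of a gene count table whose symbol begins with Mrpl or Mrps and a number, with copies named -ps left out. The rule gave 73 of the 21513 genes in the table, 45 Mrpl and 28 Mrps. By their places in the known structures of the mammalian mitoribosome, 47 are proteins of the large subunit and 25 of the small subunit. The last, Mrps36, is now known as a subunit of the 2-oxoglutarate dehydrogenase complex. Of the large subunit proteins 27 have a homolog in bacterial ribosomes and 20 are particular to mitochondria by this classification, against 16 and 9 in the small subunit. The symbol and the subunit can differ, since Mrps30 and Mrps18a sit in the large subunit. Mrpl17, Mrpl33, Mrpl40, Mrpl53 and Mrps34 are not analysed here.

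Mitochondria keep a ribosome of their own, which makes the few respiratory chain and ATP synthase subunits that mitochondrial DNA encodes. Its RNAs come from mitochondrial DNA, but all of its proteins are encoded in the nucleus, made in the cytosol and imported. Cardiac muscle cells are dense in mitochondria, and inherited loss of mitoribosomal proteins such as MRPL3, MRPL44 and MRPS22 is a cause of cardiomyopathy in humans.

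The libraries hold polyadenylated RNA of primary heart cells from wild-type mice aged P1-P3, in 5 groups of 2. One group is cardiac fibroblasts at day 14 (CF). A further 3 groups, also at day 14, are fibroblasts given MGT, which stands for Mef2c, Gata4 and Tbx5, to turn them into cells resembling heart muscle (iCM). They received DMSO as solvent control, ZLN005, which activates transcription of Ppargc1a, or GW501516, which activates the receptor PPARδ. The last group is cardiomyocytes at day 3 (CM), so that day and cell type cannot be told apart in comparisons with CM, and gene delivery or solvent cannot be told apart from reprogramming in the comparison of DMSO iCM with CF. For CM the titles were used, because the cell type and treatment fields of these libraries repeat the fibroblast entries. The sources used here give no doses. Whether the libraries of a group are separate animals or cultures is not in the labels, so the spread behind each p-value may be technical.

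Library totals ran from 39065969 to 61886463 counts. The 10 cardiomyocyte markers summed to between 339 and 515 CPM (counts scaled to a common library size) in CF and between 4171 and 4268 in DMSO iCM. ZLN005 libraries had 6583 to 7048, GW501516 libraries 7230 to 7293, and CM 29267 to 29619. The 8 fibroblast markers in the table summed to between 34934 and 38954 CPM in CF and 16018 to 16409 in DMSO iCM. ZLN005 libraries had 10083 to 10344, GW501516 libraries 12890 to 13050, and CM 13312 to 13330, so RNA of these markers was present in the CM libraries. Which cells it came from was not tested. The 10 macrophage markers summed to between 478 and 2649 CPM in CF and 723 to 753 in DMSO iCM. ZLN005 libraries had 108 to 111, GW501516 libraries 106 to 107, and CM 24.99 to 25.03. Over all groups, 6 endothelial markers summed to between 27.004 and 91.1 CPM, 5 smooth muscle markers to between 1213 and 3936, and 4 epicardial markers to between 95.9 and 237. No marker in the table was at 0 in a whole group. Cardiomyocyte and fibroblast markers had calls in each comparison between CF, DMSO iCM and CM and of each compound with DMSO. Their directions were mixed. In DMSO iCM over CF, 8 of 10 cardiomyocyte markers were higher and 2 lower, and 2 of 8 fibroblast markers were higher and 6 lower. In CM over CF all 10 cardiomyocyte markers were higher, while 2 fibroblast markers were higher and 6 lower. Tnnt2 alone stood at 3068 and 3208 CPM in DMSO iCM, most of the cardiomyocyte sum. Macrophage markers had 0 of 10 called between DMSO iCM and CF, where the CF libraries differed widely, and 0 of 10 between the compounds. The part of these cells in the results was not tested. In such bulk samples fewer cells of a type and less RNA per cell cannot be told apart.

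Promoters of 4 of the genes named in the results are shown first. They run from 250 bases before to 50 after the RefSeq start on GRCm38.p6 (the files' build, mm10), 5′ to 3′ on the gene's strand. Each of the 4 holds a match, unlike most member promoters, as the counts below the sequences show. Capitals mark a match, on either strand, to the letters of a factor that acts on nuclear genes of mitochondria: GCGCA joined to its reverse complement TGCGC for NRF1, CCGGAAGT for the ETS factor GABP and AAGATGGC for YY1. Mrpl42 (chr10:95501900-95502199, minus strand) had among the largest excesses in CM, with a YY1 match. Mrps22 (chr9:98601630-98601929, minus) rose in DMSO iCM and again in CM, with an ETS match. Mrps27 (chr13:99344536-99344835, plus) was higher in CM than in each other group, with an ETS and a YY1 match. Mrpl39 (chr16:84735195-84735494, minus) rose at each step from CF to compound-treated iCM, with an NRF1 match. By the GENCODE annotation the Mrpl39 window lies inside the gene, whose start is put at 84735742, so the place of this match depends on the annotation.
Mrpl42: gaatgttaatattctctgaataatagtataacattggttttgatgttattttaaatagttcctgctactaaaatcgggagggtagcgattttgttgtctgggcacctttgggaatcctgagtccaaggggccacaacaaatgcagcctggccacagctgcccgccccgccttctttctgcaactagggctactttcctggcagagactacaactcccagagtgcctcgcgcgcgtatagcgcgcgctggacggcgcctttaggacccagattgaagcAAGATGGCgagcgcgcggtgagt
Mrps22: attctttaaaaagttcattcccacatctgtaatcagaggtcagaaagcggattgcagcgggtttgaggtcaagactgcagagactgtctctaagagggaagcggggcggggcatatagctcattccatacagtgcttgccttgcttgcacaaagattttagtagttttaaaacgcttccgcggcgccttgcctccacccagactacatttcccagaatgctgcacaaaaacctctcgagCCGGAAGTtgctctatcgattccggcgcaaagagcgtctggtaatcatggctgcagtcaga
Mrps27: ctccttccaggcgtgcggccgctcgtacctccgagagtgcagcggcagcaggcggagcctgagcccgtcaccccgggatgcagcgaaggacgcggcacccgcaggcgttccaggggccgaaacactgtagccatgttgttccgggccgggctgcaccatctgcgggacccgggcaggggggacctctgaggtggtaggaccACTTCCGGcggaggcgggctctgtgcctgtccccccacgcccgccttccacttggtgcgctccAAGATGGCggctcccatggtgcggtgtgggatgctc
Mrpl39: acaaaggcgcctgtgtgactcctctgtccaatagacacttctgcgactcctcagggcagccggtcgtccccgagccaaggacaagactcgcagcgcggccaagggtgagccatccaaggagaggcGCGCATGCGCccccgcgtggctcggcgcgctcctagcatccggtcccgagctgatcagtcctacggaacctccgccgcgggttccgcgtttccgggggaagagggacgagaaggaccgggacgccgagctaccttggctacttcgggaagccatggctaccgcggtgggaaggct
RefSeq held 71 promoters of 65 of the genes. The YY1 letters were found in 12 of them (16.9%) against 3.68% of 15402 promoters of the genes tested, and the ETS letters in 11 (15.5%) against 6.84%. The NRF1 letters were found in 3 (4.23%) against 1.71%. The letters TCAAGGTCA of the estrogen-related receptors, partners of PGC1α, were found in 0 against 0.253%. At so low a share a count of 0 among 71 promoters was likely in advance, so it says nothing about the members. A match describes the letters in this window and no more. The matches of Mrps27 do not overlap.

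The members as a whole made up a small share of the counts, lowest in CF and highest in CM. They held 0.147 and 0.144 percent of the library in CF (Wilson 95% intervals 0.146 to 0.148 and 0.143 to 0.145) and 0.150 and 0.158 percent in DMSO iCM (0.149 to 0.151 and 0.157 to 0.159). With ZLN005 they held 0.173 and 0.167 percent (0.171 to 0.174 and 0.166 to 0.168), and with GW501516 0.169 and 0.163 percent (0.167 to 0.170 and 0.162 to 0.165). In CM they held 0.220 and 0.228 percent (0.219 to 0.221 and 0.227 to 0.230). Intervals cover counting error only. Both CM libraries lay above the other 8, both ZLN005 and both GW501516 libraries lay above both DMSO libraries, and the compounds overlapped each other. The mean share was 1.06 times that of CF in DMSO iCM, 1.16 times with ZLN005, 1.14 times with GW501516 and 1.54 times in CM. An exact two-sided permutation test of 2 against 2 libraries cannot go below p = 0.333. For comparison, the 13 protein-coding messages of mitochondrial DNA held between 1.88 and 1.95 percent of the counts in CF and between 2.43 and 2.44 in DMSO iCM. ZLN005 libraries had 2.43 to 2.62 percent, GW501516 libraries 2.57 to 2.58, and CM 5.47 to 5.53.

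**Figure D1:**
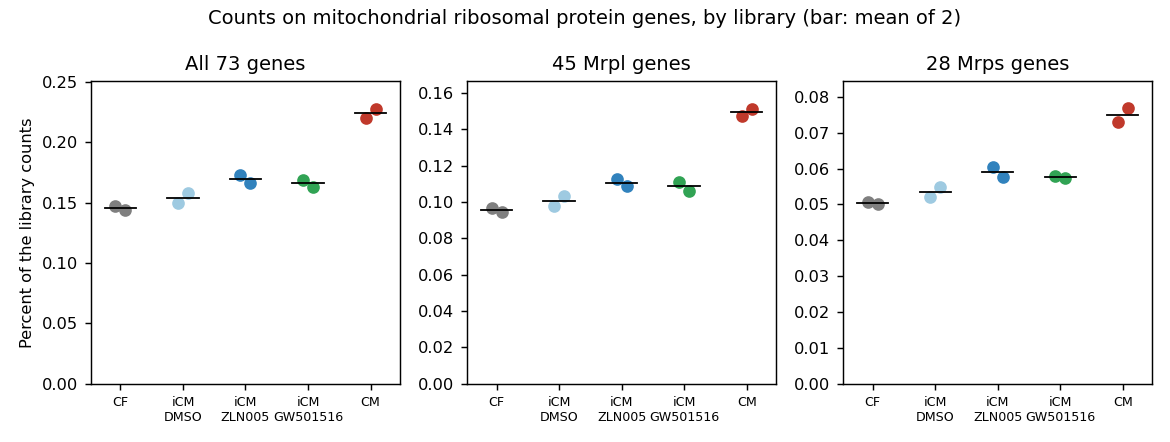
Percent of each library's counts on all 73 mitochondrial ribosomal protein genes, on the 45 Mrpl genes and on the 28 Mrps genes (vertical axes, from 0), by group. Points are libraries and bars are means of 2. The 2 CM libraries, at 0.220 and 0.228 percent for all 73 genes, lie above the other 8, and the compound-treated iCM libraries lie between DMSO iCM and CM.

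Single members differed far more from each other than between groups. Per kilobase of coding transcript, and averaged over the 10 libraries, the highest were Mrps21 (89.3 CPM per kb), Mrpl42 (71.5), Mrpl30 (45.1), Mrps36 (40.0) and Mrpl20 (37.2). The lowest with counts were Mrps18a (0.952 CPM per kb), Mrpl3 (2.93), Mrps25 (3.13), Mrps26 (3.42) and Mrpl19 (3.74), and the median of the 72 genes with counts was 14.0. This ranking leans on the length used as divisor. Coding transcripts of the 5 highest measured from 492 bases (Mrps21) to 973 (Mrpl30). Those of the lowest measured from 4278 (Mrps26) to 6073 (Mrps25), apart from Mrps18a with 1037. In CPM without the length, Mrpl3 stood at 15.1 in both CF libraries, above Mrps12 at 8.85 and 9.17. Mrps6 was at 0 in all 10 libraries, which allows up to 3 counts in each. Some of its exon bases (19.9%) are shared with genes on the same strand, Slc5a3 among them. In all, 22 members share at least 10% of their exon bases or 75-base stretches with other genes, so their counts are uncertain. Mrps25 shares 69.8% of its exon bases, Mrpl19 36.0%, Mrpl43 33.4%, Mrps18b 30.5%, Mrpl24 26.3%, Mrps27 and Mrpl47 24.2% each, Mrps18c 23.2%, Mrps24 15.4% and Mrpl12 13.1%, and Mrps36 shares 11.3% of its stretches with pseudogene copies.

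The comparison of CM with CF sets the native range of these genes. Nearly the whole set was higher in cardiomyocytes, by modest amounts and with none lower. Of 72 members tested (all but Mrps6), 65 were higher in CM and 0 lower, against 34.5% of all genes tested called higher and 36.2% called lower. By DESeq2 and limma-voom the count of lower members was also 0. An unadjusted p under 0.05 was found for 65 members, beside 11440 of the 15740 genes tested. The median log2 change was 0.66, beside −0.02 over all genes tested. All 72 log2 changes were above 0, from 0.05 to 1.62. Values below are log2 changes ± SE with adjusted p from edgeR, and levels are CPM of single libraries after TMM scaling.

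The member with the largest excess in CM was Mrpl12 (chromosome 11, 120484613 to 120489065), the homolog of bacterial L7/L12, whose stalk draws translation factors to the large subunit. It stood at 18.8 and 18.3 CPM in CF, 21.7 and 20.7 in DMSO iCM, 22.7 and 22.8 under ZLN005, 27.2 and 24.1 under GW501516, and 56.0 and 58.0 in CM. Both CM libraries lay above the other 8, with a log2 change over CF of 1.62 ± 0.07 (adjusted p = 8.1e-09). Mrpl10, the protein that carries L12 in the stalk, stood at 33.7 and 32.3 CPM in CF and 36.9 and 39.7 in CM, a change of 0.21 ± 0.06 (adjusted p = 0.0074). Mrpl11, at the base of the same stalk, rose by 0.67 ± 0.07 (adjusted p = 8.4e-06). Genes of 1 stalk thus had log2 changes from 0.21 to 1.62, and the difference between them was not tested.

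Mrpl42 (chromosome 10, 95480805 to 95501940), a mitochondrial protein of the large subunit, stood at 33.4 and 32.9 CPM in CF, 35.5 and 34.2 in DMSO iCM, 40.0 and 37.3 under ZLN005, 43.5 and 40.3 under GW501516, and 90.7 and 97.8 in CM. Its change from CF to CM was 1.51 ± 0.06 (adjusted p = 5.4e-09), and here too no iCM library reached the CM range. Mrps36 (chromosome 13, 100735955 to 100744659), the dehydrogenase subunit, stood at 16.5 and 18.6 CPM in CF, 20.6 and 22.5 in DMSO iCM, 26.6 and 23.5 under ZLN005, 27.5 and 27.5 under GW501516, and 45.7 and 51.2 in CM. Its change was 1.46 ± 0.09 (adjusted p = 1.5e-07). The gene thus lay among the top 3 although it is not part of the ribosome. Mrps22 (chromosome 9, 98588730 to 98601660), a small subunit protein, stood at 12.5 and 14.5 CPM in CF, 16.7 and 15.6 in DMSO iCM, 17.1 and 17.4 under ZLN005, 16.7 and 15.1 under GW501516, and 32.2 and 31.1 in CM, a change of 1.23 ± 0.09 over CF (adjusted p = 5.5e-07). Mrpl15 rose by 1.18 ± 0.06 and Mrpl46 by 1.17 ± 0.09. These 6 calls held under all 17 alternatives, as did 55 of the 65.

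Among the structural groups, the mitochondrial proteins of the small subunit had the highest median log2 change between CF and CM, 0.95, with 8 of 9 higher. The large subunit proteins with bacterial homologs had a median of 0.73 with 23 of 27 higher, and the mitochondrial proteins of the large subunit 0.62 with 19 of 20 higher. The small subunit proteins with bacterial homologs had the lowest median, 0.46, with 14 of 15 higher. Differences between these groups were not tested. Mrps27, a pentatricopeptide repeat protein of the small subunit, rose by 1.02 ± 0.11 (adjusted p = 1.1e-05), and Mrps28 by 1.03 ± 0.12. Mrpl45, which faces the inner membrane at the exit tunnel, rose by 0.96 ± 0.08 (adjusted p = 1.6e-06). Mrpl3, near the peptidyl transferase centre, rose by 0.56 ± 0.09, Mrpl44, an RNase III-like protein, by 0.48 ± 0.09, and Mrps14 by 0.47 ± 0.08. Mrpl58, a peptidyl-tRNA hydrolase that frees stalled ribosomes, rose by 0.52 ± 0.08, and Mrps30 by 0.68 ± 0.08.

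The 7 members not called between CM and CF were Mrpl14, Mrpl24, Mrpl27, Mrpl36, Mrps12, Mrps18a and Mrps26. Mrpl24 (chromosome 3, 87919506 to 87923672) stood at 44.4 and 48.5 CPM in CF, 44.4 and 47.1 in DMSO iCM, 44.9 and 48.1 under ZLN005, 47.3 and 47.9 under GW501516, and 48.6 and 48.2 in CM, a change of 0.06 ± 0.06 (adjusted p = 0.41). All 5 groups lay close together, and it was named after its values were seen. Mrps12, a protein of the decoding centre, stood at 8.85 and 9.17 CPM in CF and 9.40 and 9.92 in CM, a change of 0.10 ± 0.10 (adjusted p = 0.41). Mrpl24, Mrpl27, Mrps12 and Mrps18a were called in none of the 8 comparisons.

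The paralogs Mrps18a, Mrps18b and Mrps18c are all related to bacterial S18, and differences between them were not tested. Mrps18b (chromosome 17, 35910379 to 35916389) stood at 12.1 and 11.1 CPM in CF, 11.6 and 11.6 in DMSO iCM, 12.4 and 14.0 under ZLN005, 12.8 and 13.6 under GW501516, and 24.6 and 22.6 in CM, a change from CF of 1.02 ± 0.09 (adjusted p = 3.0e-06). Its CM libraries stood apart from the other 8. Mrps18c (chromosome 5, 100798627 to 100804471) stood at 8.28 and 9.60 CPM in CF and 10.9 and 13.2 in CM, a change of 0.43 ± 0.13 (adjusted p = 0.013) that was lost under at least 1 alternative. Mrps18a (chromosome 17, 46110986 to 46128910) stood at 0.976 and 0.705 CPM in CF and 1.30 and 0.946 in CM, ranges that overlapped, with a change of 0.42 ± 0.33 (adjusted p = 0.28). Its counts were as low as 34 in a library, against at least 250 for every other tested member.

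**Figure D2:**
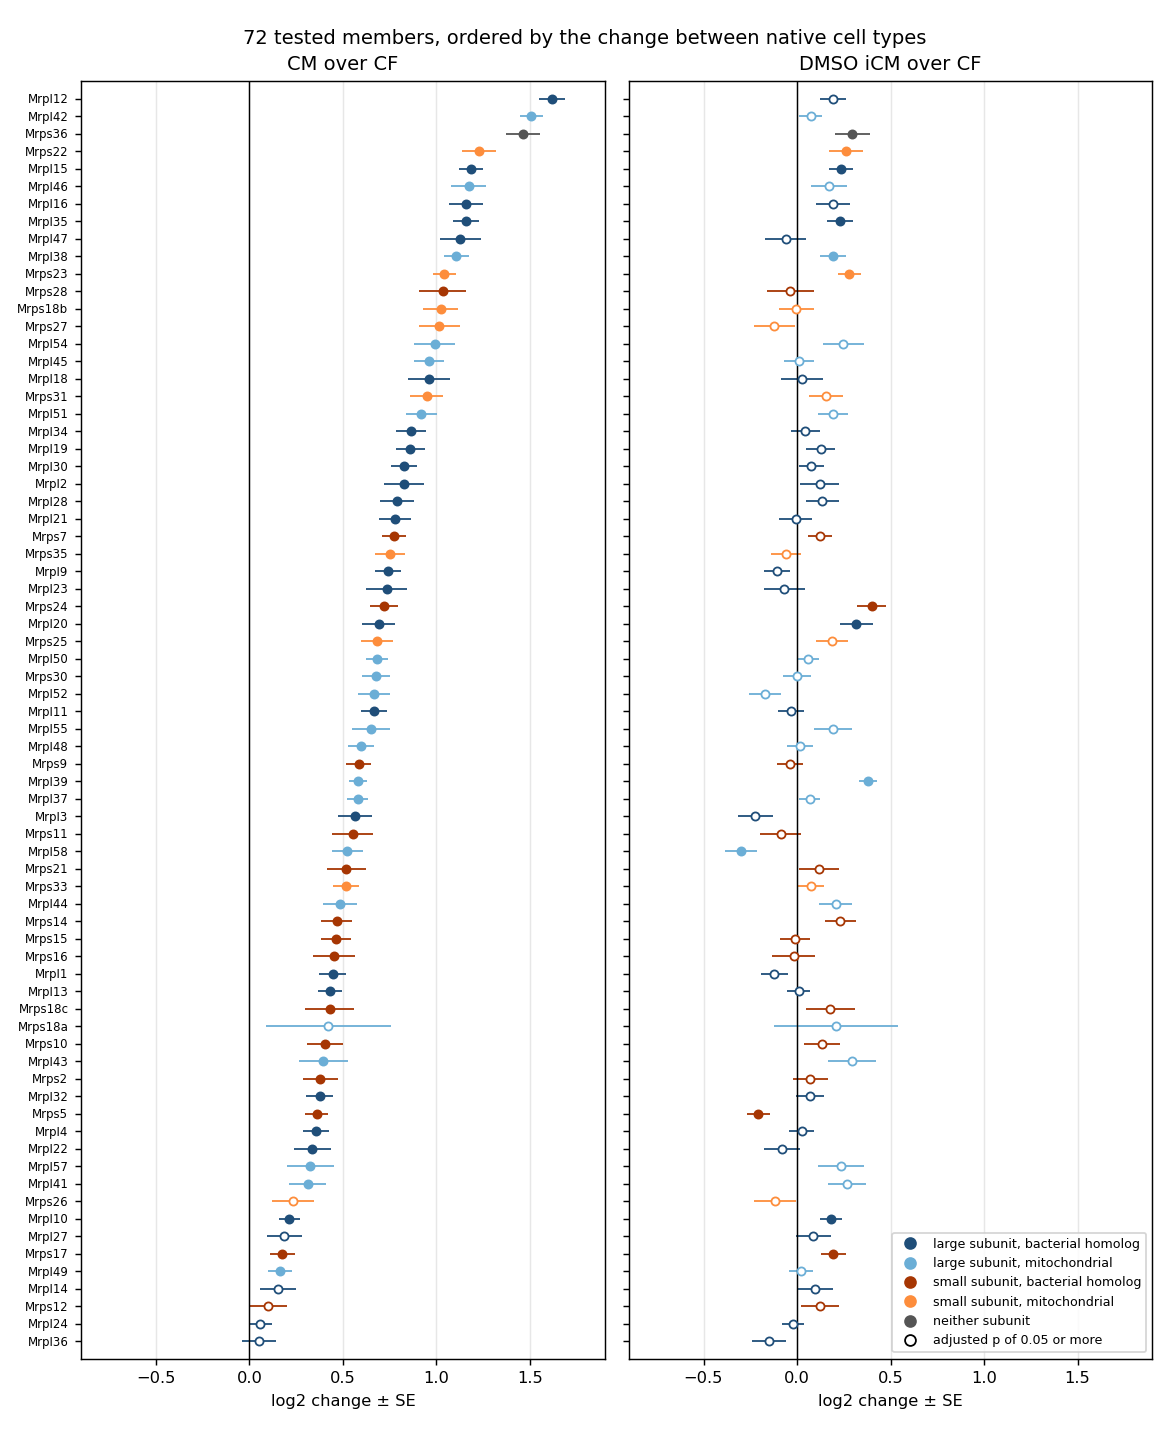
log2 change ± SE of the 72 tested members, ordered by the change of CM over CF (left panel), with the change of DMSO iCM over CF in the same order (right panel). Colours give the structural group and open circles an adjusted p of 0.05 or more. All left-hand points lie above 0, up to 1.62 for Mrpl12, while the right-hand points lie between −0.30 and 0.40.

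DMSO iCM were compared with CF to see what reprogramming did to these genes. The changes were small and few. Of 72 members 11 were higher and 2 lower, beside 19.9% and 19.5% of all genes. Called either way were 13 members, beside 39.3% of all genes, and no test of that difference was made. The median log2 change was 0.08, beside −0.01 over all genes. This comparison shares its CF libraries with that of CM and CF.

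Mrps24, homolog of bacterial S3 at the messenger entry, had the largest rise. It stood at 16.0 and 17.2 CPM in CF, 21.1 and 22.7 in DMSO iCM and 26.9 and 27.9 in CM, a change over CF of 0.40 ± 0.08 in DMSO iCM (adjusted p = 0.0017). Mrpl39 (chromosome 16, 84717576 to 84735742), a large subunit protein related to threonyl-tRNA synthetases, stood at 32.6 and 33.6 CPM in CF and 43.1 and 43.0 in DMSO iCM, a change of 0.38 ± 0.05 (adjusted p = 0.0001). Mrps23 stood at 25.8 and 27.5 against 32.4 and 32.3 CPM, a change of 0.28 ± 0.06 (adjusted p = 0.0040). In each the DMSO libraries lay above both CF libraries. Mrpl20 (0.32 ± 0.09), Mrps36 (0.30 ± 0.09) and Mrps22 (0.26 ± 0.09) also rose.

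Mrpl58 and Mrps5 went down. Mrpl58 stood at 15.7 and 16.0 CPM in CF, 12.0 and 13.7 in DMSO iCM, 13.4 and 13.8 under ZLN005, 12.8 and 13.6 under GW501516, and 22.7 and 22.8 in CM, a change of −0.30 ± 0.09 in DMSO iCM (adjusted p = 0.018). Mrps5, homolog of bacterial S5, which shapes decoding accuracy, stood at 31.2 and 31.8 CPM in CF and 26.9 and 27.7 in DMSO iCM, a change of −0.21 ± 0.06 (adjusted p = 0.021). In CM both lay above CF (0.52 ± 0.08 and 0.36 ± 0.06). Only Mrpl39, Mrps23 and Mrps24 of the 13 calls held under all 17 alternatives. In a fit of these 2 groups alone 3 members rose and 0 fell, beside 2207 and 2184 of 15243 genes tested. Rises were fewer without DMSO replicate 2 and falls fewer without DMSO replicate 1, where fewer of all genes were called as well.

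ZLN005 and GW501516 were each compared with DMSO to see what either compound added in iCM. A few members rose with each and none fell. With ZLN005 5 members rose, beside 6.64% of all genes called higher, a share of 6.94% of the members, and 0 fell, beside 8.84%. With GW501516 7 rose (9.72%), beside 7.80% of all genes, and 0 fell, beside 6.96%. The counts of falls were 0 by DESeq2 and limma-voom as well. In either direction, 18 of 72 members with ZLN005 and 17 with GW501516 had an unadjusted p under 0.05. Of the 15740 genes tested, 4450 and 4397 did, so these member counts do not stand out. In this fit the shares of rises are near those of all genes. The median log2 change was 0.10 with ZLN005 and 0.12 with GW501516, beside 0.00 and −0.01 over all genes, and 59 and 65 of 72 changes were above 0. Both comparisons share the DMSO libraries.

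Mrpl39 and Mrpl1 were the members that rose with both compounds. Mrpl39 stood at 43.1 and 43.0 CPM with DMSO, 53.8 and 53.3 under ZLN005, 51.8 and 51.9 under GW501516, and 48.3 and 50.5 in CM. Its change was 0.31 ± 0.05 with ZLN005 (adjusted p = 0.0017) and 0.27 ± 0.05 with GW501516 (adjusted p = 0.0043), both held under all 18 alternatives. All 4 treated libraries lay above both CM libraries, yet neither difference passed the test (CM over ZLN005 −0.11 ± 0.05, adjusted p = 0.054, and over GW501516 −0.07 ± 0.05, adjusted p = 0.22). With limma-voom the first of these was called. Mrpl1 (chromosome 5, 96209493 to 96266727), the homolog of bacterial L1 whose stalk guides spent tRNA out of the ribosome, stood at 23.9 and 21.3 CPM in CF, 20.1 and 21.5 under DMSO, 25.1 and 26.0 under ZLN005, 27.1 and 26.9 under GW501516, and 30.6 and 30.97 in CM. It rose by 0.30 ± 0.07 with ZLN005 (adjusted p = 0.019) and 0.38 ± 0.07 with GW501516 (adjusted p = 0.0066), and its treated libraries lay between DMSO and CM without overlap.

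With ZLN005 Mrpl35, homolog of bacterial L35, went from 20.1 and 21.0 to 25.2 and 26.6 CPM (0.34 ± 0.07, adjusted p = 0.0094). Mrps35 went from 15.5 and 15.6 to 19.7 and 18.1 CPM (0.28 ± 0.08, adjusted p = 0.040). Mrpl48 rose by 0.23 ± 0.07 (adjusted p = 0.048). With GW501516 the largest rise was that of Mrpl54, from 11.6 and 13.8 to 18.2 and 16.98 CPM (0.47 ± 0.11, adjusted p = 0.017). Mrps36 rose by 0.35 ± 0.09, Mrpl12 by 0.28 ± 0.07, Mrpl42 by 0.27 ± 0.06 and Mrps23 by 0.23 ± 0.06.

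These counts moved with the choice of libraries. Without CF replicate 1 or 2, which stand outside these comparisons but enter the shared estimate of spread, 16 members rose with ZLN005 and 15 with GW501516. These were 22.2% of the members, beside 12.4% and 11.9% of all genes, and 20.8%, beside 13.2% and 13.1%. In a fit of the 3 iCM groups alone, added after the data were seen, 16 rose with ZLN005 (22.2%, beside 14.1%) and 14 with GW501516 (19.4%, beside 15.1%). Without DMSO replicate 1, or without ZLN005 replicate 2 or GW501516 replicate 1 in its own comparison, the single remaining rise was Mrpl39 (1.39% of the members, beside 2.94% to 3.71% of all genes). The 2 CF libraries had a chi-square per degree of freedom of 57.5 between them, against 3.33 to 6.25 in the other groups. Macrophage markers fell beside these rises, 10 of 10 with ZLN005 and 9 of 10 with GW501516, while 7 and 6 of 10 cardiomyocyte markers rose and 3 fell in each.

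**Figure D3:**
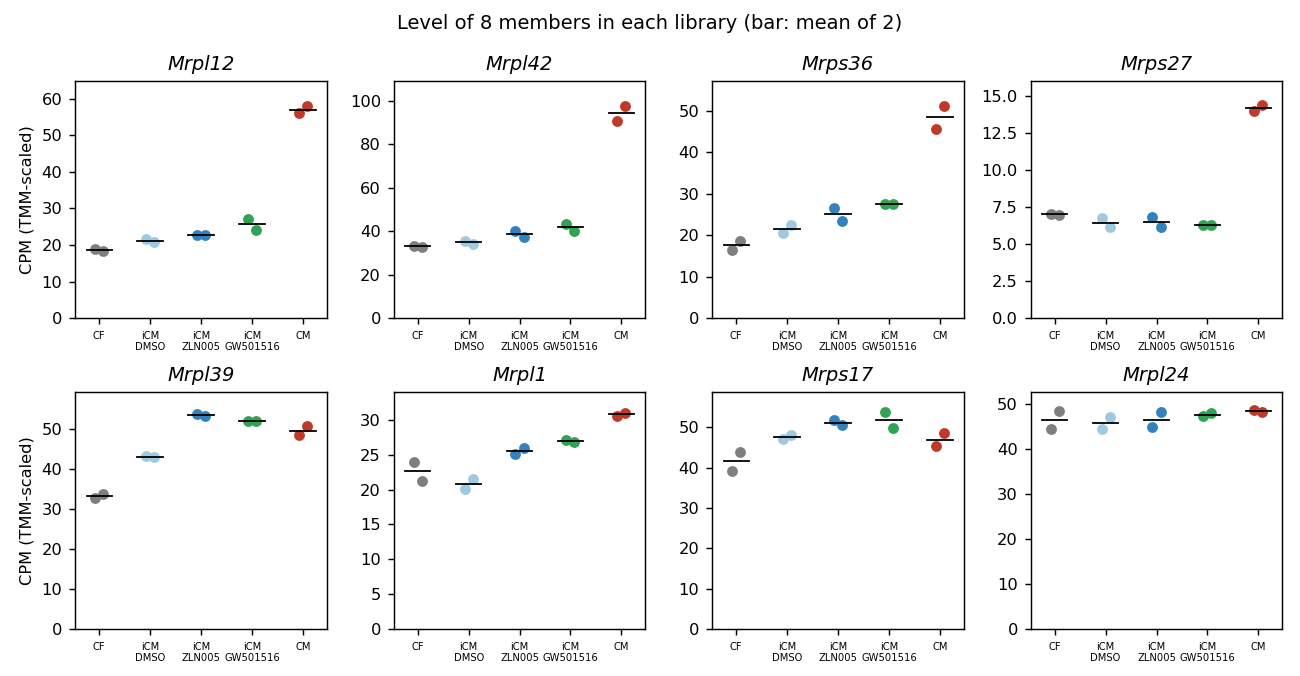
TMM-scaled CPM (vertical axes, from 0) of 8 members in each of the 10 libraries, by group, with bars at the mean of 2. Mrpl12, Mrpl42, Mrps36 and Mrps27 stand apart in CM, Mrpl39 reaches 53.8 CPM with ZLN005 against 50.5 in the higher CM library, Mrpl1 is higher with each compound than with DMSO, Mrps17 is lowest in CF, and Mrpl24 was called in no comparison.

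ZLN005 and GW501516 were also set against each other. No member was called in either direction, beside 1.54% of all genes higher with ZLN005 and 3.52% lower (5.06% either way). DESeq2 and limma-voom also called 0. An unadjusted p under 0.05 was found for 4 of 72, beside 2696 of the 15740 genes tested. The 95% interval of the log2 difference, ZLN005 over GW501516, lay within 0.5 of 0 (a bound chosen after the data were seen) on both sides for 70 of 72 members, all but Mrpl43 and Mrps18a. For Mrpl39 it ran from −0.06 to 0.15 and for Mrpl1 from −0.24 to 0.08. Mrpl30 had the smallest p, with 38.1 and 36.6 CPM against 46.5 and 42.3 and an interval from −0.40 to −0.10 (−0.25 ± 0.07, adjusted p = 0.075), and it was called lower with ZLN005 in fits without either CF library. Mrpl35 had 25.2 and 26.6 CPM against 23.1 and 22.0 (0.20 ± 0.07, adjusted p = 0.16), and was called higher in the same fits. With the doses not given, the values stand side by side without a matched dose.

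CM were compared with each iCM group to see how far the reprogrammed cells lay from native cardiomyocytes. Most members were higher in CM than in any iCM. Of 72, 59 were higher in CM than in DMSO iCM (beside 34.1% of all genes, and 69.7% called either way), 54 than with ZLN005 (34.2%, and 67.9% either way) and 50 than with GW501516 (33.7%, and 67.2% either way). None was lower, beside 35.7%, 33.7% and 33.5% of all genes, and DESeq2 likewise called none lower, while limma-voom called 1 lower against ZLN005 only. With an unadjusted p under 0.05 there were 59, 55 and 54 members, beside 11354, 11067 and 10993 of the 15740 genes tested. The median log2 change was 0.62 over DMSO iCM, 0.48 with ZLN005 and 0.48 with GW501516, beside −0.03, −0.01 and 0.00 over all genes. In 57 of 72 members (79.2%) both CM libraries lay above the other 8, beside 30.8% of all genes. The 4 treated libraries lay above both DMSO libraries in 28 members (38.9%, beside 19.0%), and between DMSO and CM without overlap in 26 (36.1%, beside 7.27%).

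**Figure D4:**
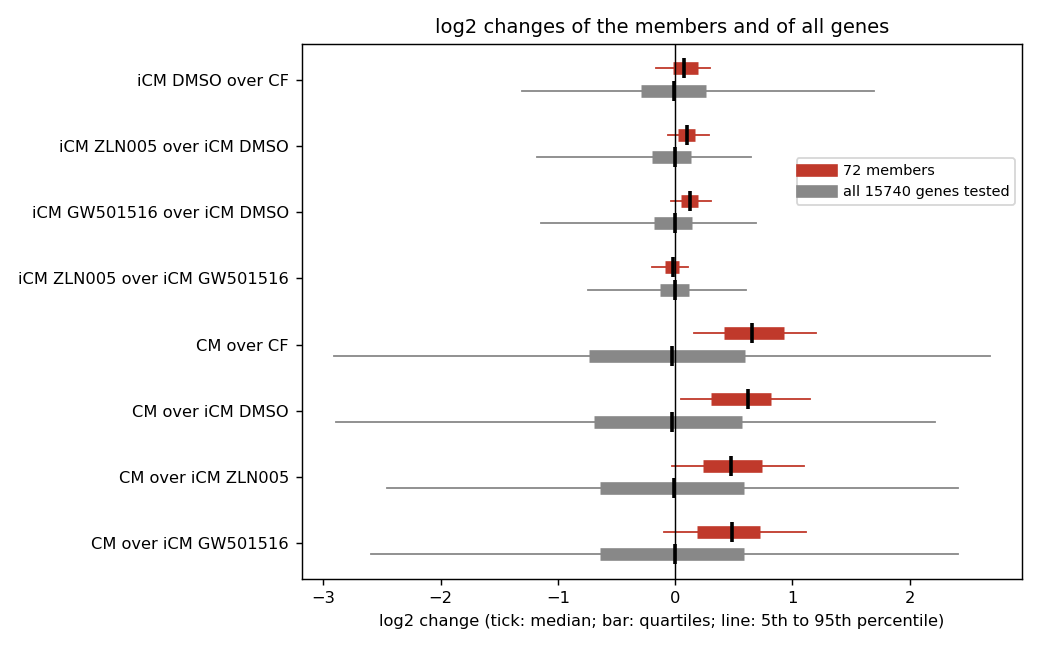
Distribution of log2 changes (horizontal axis) in the 8 comparisons, for the 72 tested members and for all genes tested. Ticks are medians, bars quartiles and lines the 5th to 95th percentile. In the comparisons of CM the quartiles of the members lie above 0, with medians from 0.48 to 0.66, and the lines reach below 0 against ZLN005 and GW501516. Elsewhere member medians lie between −0.02 and 0.12, while medians of all genes lie between −0.01 and 0.00.

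Against each of the 4 other groups 49 members (68.1%) were higher in CM, beside 24.5% of all genes. Mrps27 (chromosome 13, 99344786 to 99415562) stood at 7.05 and 7.01 CPM in CF, 6.76 and 6.17 in DMSO iCM, 6.84 and 6.14 under ZLN005, 6.33 and 6.27 under GW501516, and 14.0 and 14.4 in CM. Both CM libraries lay above the other 8, and its log2 change in CM was 1.14 ± 0.11 over DMSO iCM, 1.13 ± 0.11 over ZLN005 and 1.17 ± 0.11 over GW501516 (adjusted p from 4.7e-06 to 5.7e-06). Mrps28 had changes of 1.07 ± 0.13, 1.13 ± 0.13 and 1.18 ± 0.13 in the same order. For Mrpl47, near the exit of the large subunit tunnel, they were 1.19 ± 0.11, 1.07 ± 0.11 and 1.09 ± 0.11, and for Mrpl12 they were 1.43 ± 0.07, 1.33 ± 0.07 and 1.15 ± 0.07. Mrpl42 had changes of 1.43 ± 0.06, 1.29 ± 0.06 and 1.17 ± 0.06. Mrpl18 rose by 0.98 ± 0.11 over ZLN005 and Mrps22 by 1.00 ± 0.09 over GW501516.

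Mrpl22, Mrpl39, Mrps10, Mrps14, Mrps21 and Mrps26 were higher in CM than in DMSO iCM but called against neither treated group, 8.33% of the members beside 2.1% of all genes. That pattern of calls is no test of a change with a compound, and of the 6 only Mrpl39 passed that test. Mrps10 stood at 13.2 and 12.2 CPM under DMSO, 15.8 and 15.2 under ZLN005, 13.6 and 12.8 under GW501516, and 14.2 and 16.4 in CM. Mrps14 stood at 24.5 and 29.3 CPM with DMSO, 30.5 and 29.1 under ZLN005, 30.5 and 28.5 under GW501516, and 32.1 and 31.1 in CM. The GW501516 libraries of Mrps10 overlapped those with DMSO and the ZLN005 libraries lay above them, while the DMSO and ZLN005 ranges of Mrps14 overlapped. Mrps17, homolog of bacterial S17, was higher in CM than in CF but not than in iCM, at 39.2 and 43.9 CPM in CF, 47.0 and 48.0 under DMSO, 51.8 and 50.6 under ZLN005, 53.8 and 49.9 under GW501516, and 45.3 and 48.7 in CM. These members were picked after their values were seen.

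Other genes of mitochondrial translation are read here against the 34.5% of all genes called higher and 36.2% called lower in CM than in CF. Of 5 mitoribosome proteins under other symbols, 3 were higher in CM than in CF and 0 lower (median log2 change 0.67): Chchd1 (1.12 ± 0.09), Ptcd3 (0.91 ± 0.06), a pentatricopeptide repeat protein of the small subunit, and Dap3 (0.67 ± 0.06), its GTP-binding protein. Of 24 factors of mitoribosome assembly and ribosomal RNA modification, 7 were higher and 3 lower (median 0.15), a share of rises no larger than among all genes, with Fastkd2 (0.87 ± 0.11) and Nsun4 (0.43 ± 0.08) up and Rbfa (−0.56 ± 0.11) down. Among 17 translation factors 9 were higher and 2 lower (median 0.24). Gfm1, the elongation factor G of mitochondria, went from 41.9 and 41.9 CPM in CF to 106 and 111 in CM (1.37 ± 0.05, adjusted p = 3.4e-09), and Tufm, the elongation factor Tu, from 37.9 and 39.2 to 96.5 and 99.4 (1.34 ± 0.06). Both elongation factors lay above CF in both CM libraries.

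Of 19 mitochondrial aminoacyl-tRNA synthetases and related enzymes, 10 were higher in CM than in CF and 2 lower (median log2 change 0.24). Ears2, which charges glutamate, had the largest change among those named (1.97 ± 0.08), and Yars2 and Qrsl1 rose by 1.09 ± 0.10 and 0.95 ± 0.09. Of 11 genes of mitochondrial transcription and DNA maintenance, 7 were higher and 3 lower (median 0.30). Tfam (0.54 ± 0.07), which packs the genome and helps start its transcription, was up. The polymerase gene Polg (0.32 ± 0.06) was also up and its partner Polg2 (−1.02 ± 0.20) down. Outside mitochondrial translation, 36 of 37 nuclear complex I genes were higher in CM than in CF (median 1.22), as were 73 of 78 cytosolic ribosomal protein genes (median 0.51). In DMSO iCM against CF, 57 of the 78 cytosolic ribosomal protein genes were lower and 0 higher (median −0.28), beside 19.5% and 19.9% of all genes. With ZLN005 9 and with GW501516 18 of the 37 complex I genes rose (medians 0.20 and 0.26), beside 6.64% and 7.80% of all genes. Of the 78 cytosolic ribosomal protein genes 2 rose with ZLN005 and 15 with GW501516 (medians 0.03 and 0.16), and 0 fell. Higher in CM were 75 of them over DMSO iCM, 73 over ZLN005 and 74 over GW501516 (medians 0.79, 0.77 and 0.64). Lower were 0, 1 and 1. The rises of the members are thus not particular to the mitochondrial ribosome.

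Among 9 nuclear regulators of mitochondrial genes, 7 were higher in CM than in CF and 1 lower (median log2 change 0.94). Ppargc1a, which encodes PGC1α, stood at 2.17 and 2.03 CPM in CF, 1.99 and 2.38 in DMSO iCM, 4.36 and 3.68 under ZLN005, 2.27 and 3.39 under GW501516, and 54.8 and 48.0 in CM (CM over CF 4.61 ± 0.18). Its relative Ppargc1b stood at 1.97 and 2.26 CPM in CF, 8.69 and 7.19 in DMSO iCM, 11.8 and 12.7 under ZLN005, 13.9 and 15.8 under GW501516, and 14.5 and 12.9 in CM. Ppargc1b was thus already higher in DMSO iCM than in CF (1.91 ± 0.14, adjusted p = 1.7e-06), and rose by 0.62 ± 0.13 with ZLN005 and 0.90 ± 0.13 with GW501516. Esrra, the estrogen-related receptor α, rose by 0.22 ± 0.07 with ZLN005 (adjusted p = 0.045) and 0.36 ± 0.07 with GW501516 (adjusted p = 0.0049). Myc, which raises ribosome genes in many cells, and Pprc1 were higher in CM than in CF (2.54 ± 0.10 and 0.94 ± 0.05). Of the factors whose letters were searched, Nrf1 (0.19 ± 0.08, adjusted p = 0.048) and Gabpa (0.17 ± 0.05, adjusted p = 0.015) were slightly higher in CM than in CF, and Yy1 lower (−0.22 ± 0.04, adjusted p = 0.0004).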

How the data were processed

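Polyadenylated RNA of 10 libraries in 5 groups was measured as a table of 21513 gene symbols. The authors deposited whole-number counts, not normalized. Per the submitters' processing notes, the authors used Trimmomatic 0.36, HISAT2, SAMtools and featureCounts of Subread 1.5.1 with mm10. The annotation, strand setting and handling of reads with several matches are not stated in the notes or labels, which leaves counts of overlapping, antisense and copied genes uncertain. The replicates of a group correlated at 0.984 to 0.993 (Pearson r of log2 CPM).

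Counts were scaled by TMM and fitted in edgeR 4.0.16 (R 4.3.3) with all 5 groups in 1 quasi-likelihood model of 15740 genes kept by filterByExpr. Benjamini-Hochberg adjustment ran over every gene in the fit, with calls at 0.05. The SE of a log2 change is its size divided by the root of its F statistic. Alternatives were DESeq2 1.42.0, limma-voom (limma 3.58.1), scaling by DESeq2 size factors, 2 other low-count filters, a replicate block, fits of just the compared groups, and fits without each library. A fit of the 3 iCM groups alone was added after the data were seen. Levels are TMM-scaled CPM, a scale chosen after values per library total had been seen, because fold changes are on the TMM scale. The procedure was run on simulated data with a set spread and with changes larger than those of the members among iCM and CF. It is therefore no check on the small calls.

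Lengths, exon overlap and 75-base stretches came from GENCODE annotation of GRCm38, and promoters from RefSeq. Members, gene lists and markers were chosen with earlier results of these data known. Members named with values were, in each comparison, up to 6 called members with the largest rise and fall, non-overlapping CPM and a mean of 5 CPM or more in 1 group. Added to these were the 5 highest and lowest per kilobase, the Mrps18 paralogs and up to 3 called genes of each other list. So were 12 of known role, of which Mrps34 is not analysed here. Genes named for another reason are said to be so or complete a list.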

Additional observations from a re-analysis of the deposited data

How the results depend on the processing

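The excess of members in CM kept its direction under the alternatives run. Without single libraries most members stayed higher in CM than in each other group, though their number moved, and no result changed sign. The small counts among iCM and CF moved. For DMSO iCM over CF, 11 rises became 7 with DESeq2, beside 2971 of 15740 genes tested. With only the groups compared they became 3, beside 2207 of 15243. The 2 falls became 1 with DESeq2 (beside 2770 genes) and 0 with only the groups compared (beside 2184). Both counts moved without single libraries. For ZLN005 over DMSO, 5 rises became 3 with limma-voom (4.17%, beside 6.67% of all genes). With only the groups compared they became 16 (22.2%, beside 13.8%), as with only the 3 iCM groups (beside 14.1%). Their number moved without single libraries. For GW501516 over DMSO, 7 rises became 13 with only the groups compared, 14 with only the 3 iCM groups, and 1 to 15 without single libraries. For ZLN005 over GW501516, 1 rise (Mrpl35) and 1 fall (Mrpl30) appeared with only the groups compared, beside 937 and 1476 of 14573 genes. The same 2 calls appeared with only the 3 iCM groups, beside 905 and 1445 of 15115. With no low-count filter 1 fall appeared, beside 715 of 21068, and some fits without single libraries also had calls. For CM over ZLN005, 1 fall appeared with limma-voom, beside 5102 of 15740 genes. With the filter of 1 CPM in 2 libraries 1 fall appeared, beside 5065 of 13399. With only the groups compared 2 appeared, beside 5704 of 14907, and some fits without single libraries also had falls. For CM over GW501516, 2 falls appeared with only the groups compared, beside 5617 of 14798 genes, and some fits without single libraries also had falls. The share of counts in CM was 1.54 times that of CF, or 1.62 times as a sum of TMM-scaled CPM. With levels per library total in place of TMM-scaled CPM, both CM libraries lay above the other 8 in 53 members (73.6%, beside 27.7% of all genes) in place of 57, the treated libraries above DMSO in 29 (40.3%, beside 18.6%) in place of 28, and between DMSO and CM in 25 (34.7%, beside 6.58%) in place of 26. CM had the highest mean in 57 members on that scale and in 64 on the TMM scale, and the members named by their change were the same. Among results for the members named by rule, 4658 were the same, 91 gained and 116 lost their call. Many of these members were named for large called changes, so the other members may be less stable. The cause of these moves was not tested.

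Deviations of replicate 1 from the group means were nearly uncorrelated between groups (−0.003 to 0.040). With 2 libraries a group this cannot show whether libraries of equal number share a culture or day. With a replicate block the rises for ZLN005 over DMSO numbered 3 (4.17%, beside 6.1% of all genes). Those for GW501516 over DMSO numbered 7 (9.72%, beside 7.45%). Member counts of 34 to 4101 a library and 2 libraries a group give a median SE of 0.09 on the log2 scale, so changes near that size are not detectable.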
